A study of Mus musculus with 9 samples.

Results

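The Wnt ligands described here are 10 genes, Wnt3a, Wnt4, Wnt5a, Wnt5b, Wnt6, Wnt7a, Wnt7b, Wnt9a, Wnt10a and Wnt11, which were taken by gene symbol from the annotation of the array. The 10 were chosen with earlier results of these data known, so they are not a neutral pick from the Wnt genes. They were measured by 20 of the 45101 probe sets of the array, and the array held 19 Wnt genes with 32 probe sets in all. Wnt proteins are secreted, lipid-modified signals that act over short distances through Frizzled receptors. Some act mainly through beta-catenin and TCF/LEF factors, and others, of which Wnt5a is the best known, mainly through routes that steer cell polarity and movement. In the airway, Wnt signals from epithelium and mesenchyme are known for their part in lung and trachea development and in epithelial repair.

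RNA came from tracheal epithelium of mice hemizygous for the KRT5-GFP transgene, in which the keratin 5 promoter drives green fluorescent protein, so cells of every group came from transgenic animals. Cells were freed by enzymes and dissection and sorted on GFP and on binding of the GSI-A3B isolectin into 3 gates, with 3 biological replicates each, and RNA labelled with a Nugen protocol was hybridised to 9 Affymetrix mouse arrays. The GFP+ gate held KRT5-GFP+, lectin+ cells, the lectin-only gate held KRT5-GFP-, lectin+ cells, and the columnar gate held KRT5-GFP-, lectin- cells. The submitters call the cells of both lectin-binding gates basal cells and those of the third columnar epithelium. The labels used here do not say whether replicates came from separate animals or pools, so the p-values measure the spread between these arrays.

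Levels are log2 RMA signals, and 3.56 on that scale was taken as the background level, the 95th percentile of 80 probe sets for odorant and pheromone receptors. Each gene is represented by its brightest probe set unless a probe set is named. A gene is said to have risen or fallen, or to be called, where limma gave a Benjamini-Hochberg adjusted p under 0.05 over 18193 genes and the log2 difference was at least 1 in size. Differences are given as the first-named gate minus the second with the limma standard error (SE). Of 8 basal cell markers, 7 were called higher in the GFP+ gate and 7 in the lectin-only gate, each against the columnar gate, and Pdpn was not called in either comparison. Trp63, the master regulator of basal cells, averaged 13.06 on GFP+ arrays, 11.94 on lectin-only arrays and 7.62 on columnar arrays. Of 16 leukocyte markers, 14 were called higher in lectin-only against columnar, with Ptprc, the leukocyte common antigen, at 8.95 on lectin-only and 3.25 on columnar arrays. On lectin-only replicate 3, 73.0% of probe sets lay above background, against 65.3% to 66.3% on the other arrays.

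In the GFP+ gate against the columnar gate, 5 of the 10 Wnt ligands rose, 1 fell and 4 were not called. The genes that rose were Wnt10a, Wnt4, Wnt9a, Wnt3a and Wnt5b, and the gene that fell was Wnt5a. Of all genes tested, 5.88% had a call of higher and 5.33% a call of lower. The median difference of the 10 ligands was 1.22, against -0.04 over all genes. The 4 genes not called were Wnt6, Wnt7a, Wnt7b and Wnt11. Leukocyte markers moved here too, with 5 of 16 called higher and 1 lower and Ptprc at 5.41 on GFP+ and 3.25 on columnar arrays. Of 7 markers of squamous (hillock) cells, 6 were called higher, and of 7 smooth muscle markers, 2 were called higher and 0 lower. The part of these cell types in the ligand levels of the GFP+ gate was not tested. In these sorted populations, fewer cells of a type and less RNA per cell cannot be told apart.

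**Figure D1:**
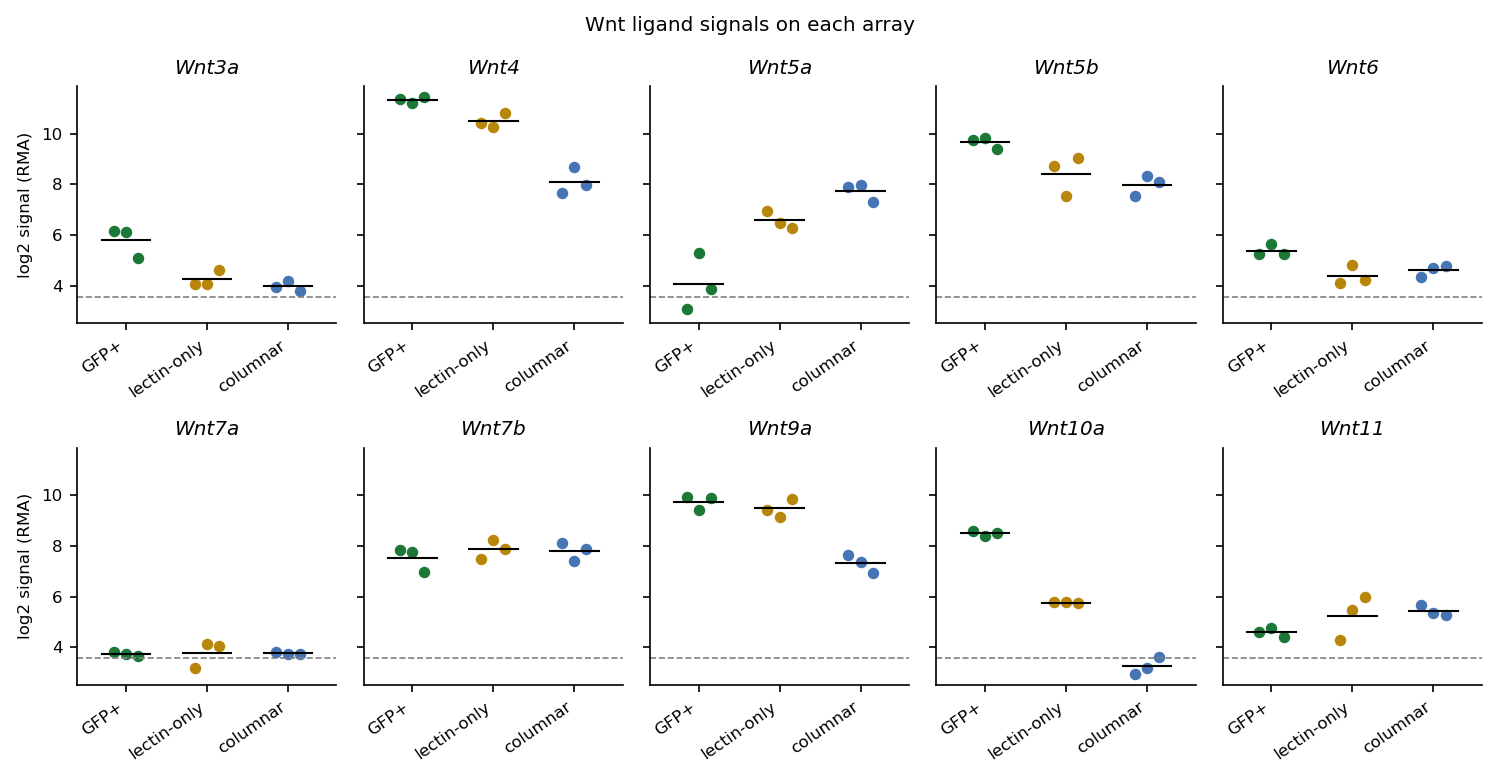
Log2 RMA signal of the brightest probe set of each Wnt ligand, with 1 point per array, a bar at the mean of the 3 arrays of a gate and a dashed line at the background level of 3.56. Wnt10a took 3 separate levels, near 8.49 on GFP+ arrays, 5.76 on lectin-only arrays and 3.25 on columnar arrays, and Wnt5a ran the other way.

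Wnt10a, a ligand known for its part in teeth, hair and skin appendages, showed the widest range of gate means of the 10 ligands, 5.24 on the log2 scale. Its signal was 8.60, 8.37 and 8.50 on the GFP+ arrays, 5.77, 5.77 and 5.74 on the lectin-only arrays and 2.95, 3.17 and 3.63 on the columnar arrays. The 3 gates did not overlap, and only 1 columnar array was above background. The values of lectin-only replicates 1 and 2 were identical, as were those of 1000 probe sets between these arrays. Wnt10a was higher in the GFP+ than in the columnar gate by 5.24 ± 0.20 (SE, adjusted p = 1.2e-06), a 37.7-fold difference. With dim values set to the background level the difference was 4.91. It also rose in lectin-only against columnar, by 2.51 ± 0.20 (adjusted p = 9.6e-05), and in GFP+ against lectin-only, by 2.73 ± 0.20 (adjusted p = 2.0e-04). The lectin-only mean lay 47.9% of the way from the columnar to the GFP+ mean on the log2 scale, and 44.3% with dim values set to background, the columnar end being mostly under it.

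Wnt4, a ligand known for its part in kidney tubule formation and female reproductive tract development, rose in both lectin-binding gates. Its signal was 11.37, 11.19 and 11.46 on the GFP+ arrays, 10.41, 10.25 and 10.82 on the lectin-only arrays and 7.68, 8.70 and 7.96 on the columnar arrays. Each lectin-binding array lay above each columnar array. The difference was 3.23 ± 0.27 in GFP+ against columnar (adjusted p = 7.0e-05) and 2.38 ± 0.27 in lectin-only against columnar (adjusted p = 5.8e-04). Between the GFP+ and lectin-only gates the arrays did not overlap, but the difference of 0.84 ± 0.27 was not called (adjusted p = 0.141). The second probe set of Wnt4, 1450782_at, gave 2.67 ± 0.22 and 1.98 ± 0.22 for the same pair of comparisons with the columnar gate, and both were called over all 45037 probe sets.

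Wnt9a, a ligand known for its part in joint formation, also rose in both lectin-binding gates. Its signal was 9.91, 9.43 and 9.90 on the GFP+ arrays, 9.42, 9.15 and 9.85 on the lectin-only arrays and 7.64, 7.36 and 6.93 on the columnar arrays. The GFP+ and lectin-only arrays overlapped, and both sets lay above the columnar arrays. The differences from the columnar gate were 2.44 ± 0.26 in the GFP+ gate (adjusted p = 2.2e-04) and 2.17 ± 0.26 in the lectin-only gate (adjusted p = 7.0e-04). GFP+ minus lectin-only was 0.28 ± 0.26, with an adjusted p of 0.717. The lectin-only mean of Wnt9a lay 88.7% ± 9.97 (SE) of the way on the same scale, while that of Wnt4 lay 73.8% ± 7.57 of the way. The second Wnt9a probe set, 1425889_at, did not show this pattern: it lay between 2.95 and 3.58 on the 9 arrays, and only columnar replicate 2 was above background. With the mean of both probe sets in place of the brighter one, Wnt9a was higher by 1.06 in the GFP+ gate and by 1.01 in the lectin-only gate, each against columnar, and remained called in both.

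Wnt3a and Wnt5b rose in the GFP+ gate. Wnt3a, a standard activator of beta-catenin signalling, had signals of 6.17, 6.12 and 5.11 on the GFP+ arrays, 4.08, 4.09 and 4.61 on the lectin-only arrays and 3.96, 4.19 and 3.79 on the columnar arrays. The GFP+ arrays lay above the rest, and the other gates overlapped at levels little above background. Wnt3a rose in GFP+ against columnar by 1.82 ± 0.30 (adjusted p = 0.00269) and was not called in lectin-only against columnar, at 0.28 ± 0.30 (adjusted p = 0.686). Wnt3a and Wnt9a are neighbouring protein-coding genes on chromosome 11 in the GRCm38.p6 annotation. Both were higher in the GFP+ gate, yet against the columnar gate only Wnt9a was called in the lectin-only gate. The difference GFP+ minus lectin-only, which was called for Wnt3a at 1.54 ± 0.30 (adjusted p = 0.0201), was not called for Wnt9a, and the contrast between these 2 genes was not tested.

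Wnt5b, the close relative of Wnt5a, had signals of 9.74, 9.83 and 9.41 on the GFP+ arrays, 8.72, 7.53 and 9.03 on the lectin-only arrays and 7.56, 8.32 and 8.10 on the columnar arrays. The GFP+ arrays lay above all others, and the lectin-only arrays spanned the columnar range. Wnt5b rose in GFP+ against columnar by 1.67 ± 0.37 (adjusted p = 0.0141). That call was lost without GFP+ replicate 2 (1.58, adjusted p = 0.0529) or columnar replicate 1 (1.45, adjusted p = 0.0559). Its second probe set, 1422602_a_at, rose by 1.27 ± 0.32 in the same comparison (adjusted p = 0.0408 over all probe sets). Wnt5b differed by 0.43 ± 0.37 in lectin-only against columnar (adjusted p = 0.590). GFP+ minus lectin-only was 1.23 ± 0.37 and was not called (adjusted p = 0.113).

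Promoter windows are shown for the ligands that rose in the GFP+ gate and had an entry in the RefSeq table of GRCm38.p6, together with a window of Wnt11, a ligand that was not called. Each window runs from 250 bases before to 50 bases after an annotated start, 5′ to 3′ on the strand of the gene. Of the 10 ligands, 7 had an entry, with 10 windows in all, and Wnt5a, Wnt7b and Wnt10a had none. Wnt5b had 3 windows and Wnt11 had 2, of which 1 each is shown. Capitals mark matches, on either strand, to GGGCGG (the GC box), CTTTGA (the core bound by TCF/LEF factors), TGANTCA (AP-1), TATAAA (the TATA box) and a pair of CATG cores with 6 bases between them (p53 family), and touching GC boxes share a run of capitals.
Wnt4, chr4:137277385-137277684, + strand: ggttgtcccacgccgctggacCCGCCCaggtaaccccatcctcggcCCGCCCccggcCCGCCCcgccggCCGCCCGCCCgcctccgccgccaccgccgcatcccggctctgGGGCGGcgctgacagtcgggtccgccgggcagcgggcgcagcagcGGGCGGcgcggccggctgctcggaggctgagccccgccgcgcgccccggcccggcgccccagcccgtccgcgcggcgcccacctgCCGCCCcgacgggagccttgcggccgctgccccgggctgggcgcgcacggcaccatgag
Wnt9a, chr11:59306680-59306979, + strand: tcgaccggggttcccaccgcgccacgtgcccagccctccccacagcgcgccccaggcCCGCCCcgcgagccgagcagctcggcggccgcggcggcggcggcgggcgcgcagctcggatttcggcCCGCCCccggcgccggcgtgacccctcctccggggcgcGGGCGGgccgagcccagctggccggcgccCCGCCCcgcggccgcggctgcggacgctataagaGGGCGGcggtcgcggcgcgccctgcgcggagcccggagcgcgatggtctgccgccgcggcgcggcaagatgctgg
Wnt3a, chr11:59290702-59291001, - strand: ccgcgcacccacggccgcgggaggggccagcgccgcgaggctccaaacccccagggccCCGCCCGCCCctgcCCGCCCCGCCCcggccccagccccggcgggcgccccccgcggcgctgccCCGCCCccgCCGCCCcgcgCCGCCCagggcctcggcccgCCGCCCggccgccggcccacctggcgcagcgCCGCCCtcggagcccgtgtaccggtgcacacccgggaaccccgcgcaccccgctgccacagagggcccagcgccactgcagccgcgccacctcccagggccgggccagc
Wnt5b, chr6:119544298-119544597, - strand: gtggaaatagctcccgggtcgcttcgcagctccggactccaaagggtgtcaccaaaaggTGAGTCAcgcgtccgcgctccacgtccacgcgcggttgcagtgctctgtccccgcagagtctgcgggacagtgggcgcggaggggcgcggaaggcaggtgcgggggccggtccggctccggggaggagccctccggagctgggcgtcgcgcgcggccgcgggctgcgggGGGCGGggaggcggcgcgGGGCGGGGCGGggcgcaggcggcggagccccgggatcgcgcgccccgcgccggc
Wnt11, chr7:98834862-98835161, + strand: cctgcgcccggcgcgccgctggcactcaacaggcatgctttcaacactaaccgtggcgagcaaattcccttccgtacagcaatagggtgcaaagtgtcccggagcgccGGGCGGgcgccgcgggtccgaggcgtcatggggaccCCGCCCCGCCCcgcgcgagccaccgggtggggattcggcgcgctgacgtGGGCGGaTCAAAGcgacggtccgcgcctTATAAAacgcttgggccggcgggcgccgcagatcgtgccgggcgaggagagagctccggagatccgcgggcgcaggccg

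The windows of Wnt4, Wnt9a and Wnt3a were rich in G and C, at 84.3%, 83.3% and 86.3%, against a median of 52.7% over 32851 windows of the table. They held 51, 58 and 45 CpG pairs, against a median of 7. Windows of ligands that were not called in GFP+ against columnar were also rich in G and C, at 76.7% for Wnt6, 76.0% for Wnt7a and 71.3% for the shown window of Wnt11, with 31, 42 and 45 CpG pairs. Of the 3 windows of Wnt5b, the shown one was at 78.0% with 47 CpG pairs and the others at or under 55.0% with 7 and 4. GC boxes were found in 9 of the 10 windows of these ligands and in 35.7% of all windows. The windows of Wnt6 and Wnt7a, ligands not called in GFP+ against columnar, also held 6 GC boxes each. The TCF/LEF core was found in 2 of the 10 windows, the shown window of Wnt11 and another window of Wnt5b, and in 16.0% of all windows. AP-1 was found in the shown window of Wnt5b and in 7.81% of all windows, and TATAAA in that of Wnt11 and in 13.6%. The paired CATG motif was found in 0 of the 10 windows and in 0.712% of all windows. These are matches of letters in a short window and not sites shown to be bound.

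Wnt5a, the best known ligand of the polarity and movement routes, was the only 1 of the 10 called lower in the GFP+ than in the columnar gate. Its signal was 3.10, 5.29 and 3.87 on the GFP+ arrays, 6.97, 6.48 and 6.29 on the lectin-only arrays and 7.90, 7.98 and 7.32 on the columnar arrays. The 3 gates did not overlap, and GFP+ replicate 1 was under background. The difference from the columnar gate was -3.64 ± 0.48 in the GFP+ gate (adjusted p = 7.8e-04) and -1.16 ± 0.48 in the lectin-only gate, which was not called (adjusted p = 0.191). With the 6 arrays of the lectin-only and columnar gates alone, or without GFP+ replicate 2, whose Wnt5a signal stands above the other GFP+ arrays, that second difference was called, with adjusted p-values of 0.0381 and 0.0434. GFP+ minus lectin-only was -2.49 ± 0.48 (adjusted p = 0.0197).

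The probe sets 1436791_at and 1437673_at of Wnt5a were also called lower in GFP+ against columnar, at -3.33 ± 0.57 and -2.85 ± 0.26, with adjusted p-values of 0.00539 and 1.8e-04 over all probe sets. They averaged 3.65 and 3.57 on GFP+ arrays, near background, each with 2 of 3 arrays above it. The fourth, 1456976_at, lay under background on all 9 arrays and so had no measurable difference. The fibrillar collagen genes of fibroblasts were likewise lowest in the GFP+ gate. Col1a1 averaged 4.17 on GFP+ arrays, 7.36 on lectin-only arrays and 7.36 on columnar arrays, and Col3a1 averaged 4.06 on GFP+, 7.58 on lectin-only and 7.94 on columnar arrays. Of 11 fibroblast markers, 5 fell and 2 rose in GFP+ against columnar. The summed signal of the 11 ran the other way, between 11.27 and 11.76 on the log2 scale on GFP+ arrays, 10.14 and 10.63 on lectin-only arrays and 9.59 and 9.77 on columnar arrays, with Dcn at 11.24 on GFP+ and 6.88 on columnar arrays. Lum was under background in every gate, and Col6a3 and Dpt in the GFP+ gate. Ciliated cell markers fell too, 10 of 10 in GFP+ against columnar, with summed signals between 8.11 and 9.52 on GFP+ arrays, 9.75 and 11.22 on lectin-only arrays and 12.41 and 12.86 on columnar arrays, and Hydin under background in both lectin-binding gates and Dnah5 in the GFP+ gate. Of 9 club and secretory markers, 4 fell. Of 5 measured brush and neuroendocrine markers, 3 fell and 2 were not called. Among those that fell, Trpm5 averaged 5.15 on GFP+, 7.26 on lectin-only and 7.55 on columnar arrays. The part of these cell types in the Wnt5a result was not tested.

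**Figure D2:**
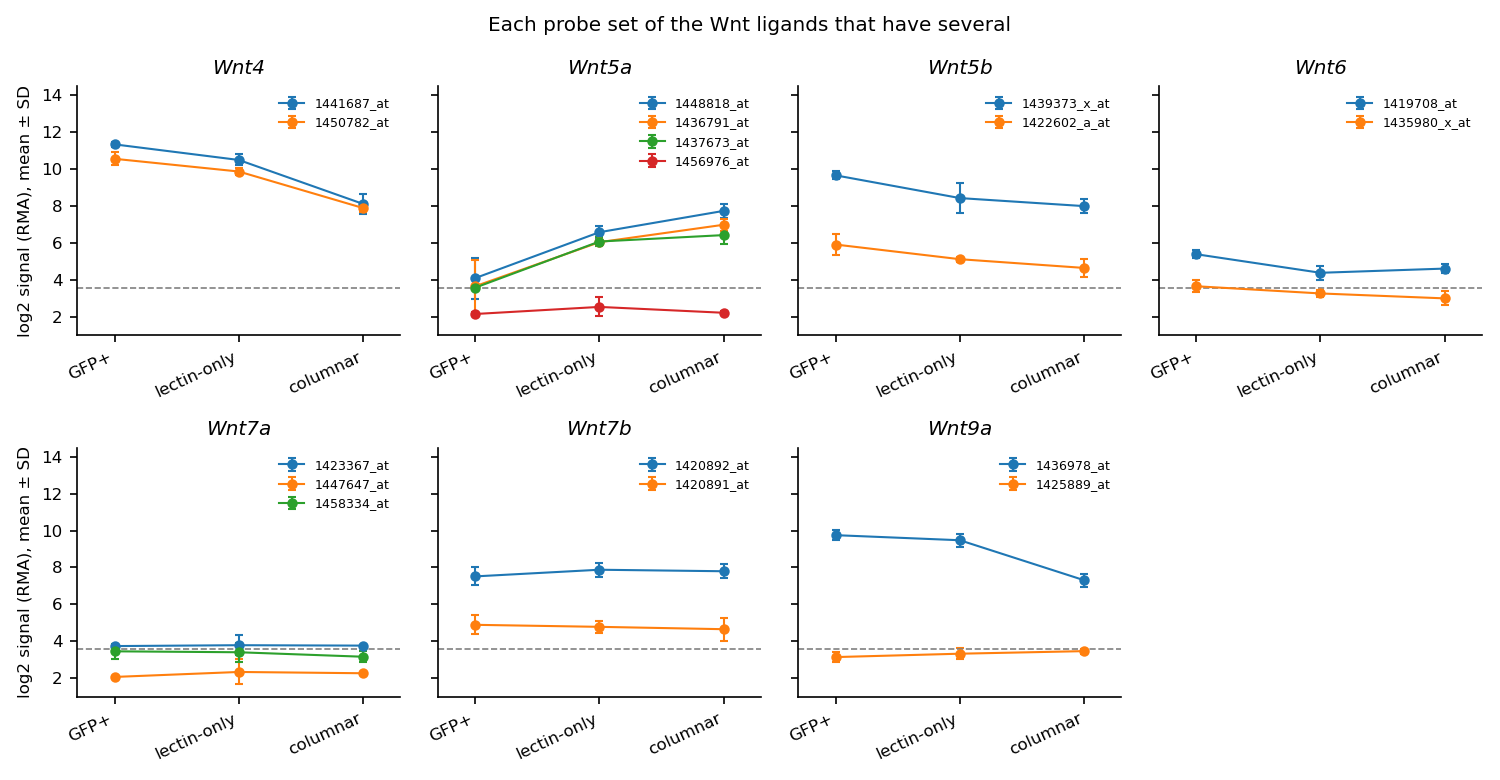
Mean log2 RMA signal of each probe set in each gate, for the 7 Wnt ligands with several probe sets, with error bars of 1 SD over 3 arrays and a dashed line at the background level. The 3 Wnt5a probe sets above background had their lowest mean in the GFP+ gate, at or near the background level. Both Wnt4 probe sets had their highest mean there, whereas 1425889_at of Wnt9a stayed between means of 3.14 and 3.47.

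In the lectin-only gate against the columnar gate, 3 of the 10 Wnt ligands rose and 0 fell. They were Wnt10a, Wnt4 and Wnt9a, which also rose in the GFP+ gate, although both comparisons share the 3 columnar arrays. Of all genes tested, 6.47% had a call of higher and 2.38% a call of lower, 1177 and 433 genes. With arrays centred on their medians the split was 968 higher and 714 lower, the median of all genes moved to -0.17, and the same 3 ligands were called. By limma, 4 of the 10 ligands had an unadjusted p under 0.05, as did 3965 of all 18193 genes. The median difference of the 10 ligands was 0.18, against 0.07 over all genes as deposited. Leukocyte markers moved with this comparison: their summed signal lay between 12.71 and 13.45 on GFP+ arrays, 15.03 and 15.47 on lectin-only arrays and 13.96 and 14.00 on columnar arrays, and 0 of the 16 were under background on all arrays of a gate. Lyz2 made up most of the columnar sum. It averaged 12.63 on GFP+ arrays, 13.61 on lectin-only arrays and 13.83 on columnar arrays. Smooth muscle markers were called higher for 3 of 7. Their summed signals lay between 8.74 and 9.51 on GFP+ arrays, 8.62 and 9.71 on lectin-only arrays and 6.71 and 7.47 on columnar arrays. Cnn1 and Actg2 were under background on GFP+ and columnar arrays. Squamous (hillock) markers rose for 7 of 7, with summed signals between 14.95 and 15.21 on lectin-only arrays and 11.95 and 12.98 on columnar arrays. Endothelial markers rose for 3 of 7, with sums between 7.62 and 8.16 on lectin-only arrays and 6.50 and 6.75 on columnar arrays, and 8 of 10 ciliated cell markers fell. Their part in the ligand levels of the lectin-only gate was not tested. Basal cell markers moved as well, with summed signals between 15.22 and 15.34 on GFP+ arrays, 14.54 and 14.70 on lectin-only arrays and 13.05 and 13.11 on columnar arrays.

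In the GFP+ gate against the lectin-only gate, Wnt10a, Wnt3a and Wnt6 were called higher and Wnt5a lower. Of all genes tested, 0.896% had a call of higher and 2.84% a call of lower, 163 and 517 genes. With centred arrays the split was 259 higher and 455 lower, the median of all genes moved to 0.06 and Wnt5b was called as well. The calls over all genes numbered 680 with all arrays and 373 in the fit without GFP+ replicate 1, where among the ligands Wnt10a alone stayed called. The median difference of the 10 ligands was 0.56, against -0.10 over all genes. Of these 4 calls, that of Wnt10a was kept in every alternative tried. The call of Wnt3a was lost without GFP+ replicate 1 or 2 or lectin-only replicate 1 or 2 (1.36 to 1.46, adjusted p between 0.0617 and 0.0838), and, at 1.54, with dim values set to background at either percentile (adjusted p = 0.0701 and 0.0674) or with only the arrays of these gates (adjusted p = 0.0521). Wnt3a was above background on every array, so setting dim values moved only its adjusted p. The call of Wnt5a was lost without GFP+ replicate 1 or 3 or lectin-only replicate 1 or 3 (-2.63 to -1.99, adjusted p between 0.0529 and 0.0775), and with dim values set to background at either percentile (-2.34 and -2.44, adjusted p = 0.0680 and 0.0764). In this comparison 13 of the 16 leukocyte markers were lower in the GFP+ gate, with Ptprc at 5.41 on GFP+ and 8.95 on lectin-only arrays, and 4 of 8 basal markers were called higher. Of 11 fibroblast markers 5 fell, Col1a1 at -3.20 and Col3a1 at -3.52 among them, and 1 rose, Dcn at 2.51. The summed signal of the 11 was higher in the GFP+ gate, between 11.27 and 11.76 on GFP+ and 10.14 and 10.63 on lectin-only arrays. Of 9 club and secretory markers 4 fell, and of 7 endothelial markers 2 fell. The part of these cell types in the ligand differences was not tested.

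Wnt6, a ligand of surface epithelia, lies next to Wnt10a on chromosome 1 in the GRCm38.p6 annotation. Its signal was 5.27, 5.65 and 5.24 on the GFP+ arrays, 4.10, 4.82 and 4.22 on the lectin-only arrays and 4.34, 4.72 and 4.77 on the columnar arrays. The GFP+ arrays lay above all others, and the other gates overlapped. GFP+ minus lectin-only was 1.01 ± 0.24 (adjusted p = 0.0466), just past both limits, and 15 of 19 alternatives lost the call, leaving out any array other than lectin-only replicate 2 among them (0.87 to 1.08, adjusted p between 0.0558 and 0.138). GFP+ minus columnar was 0.78 ± 0.24 (adjusted p = 0.0577) and was not called. The second Wnt6 probe set, 1435980_x_at, was above background on 1 of 9 arrays. Wnt10a and Wnt6 were thus unlike in size of difference in the same comparison, 5.24 for Wnt10a and 0.78 for Wnt6 in GFP+ against columnar.

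**Figure D3:**
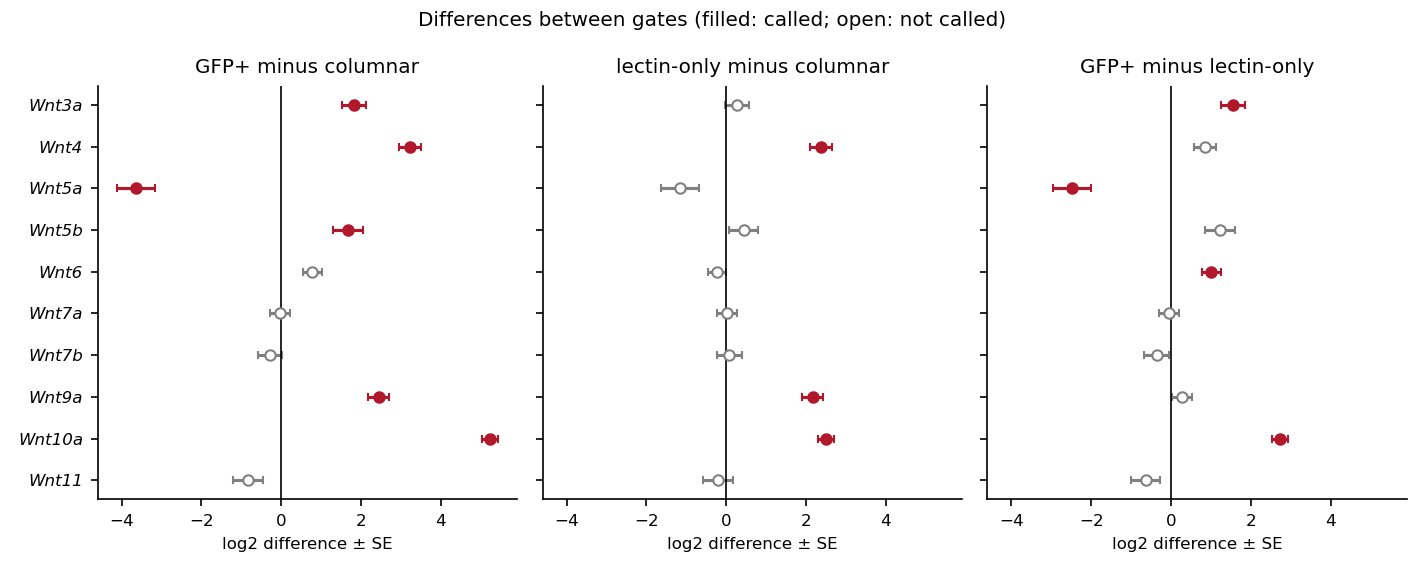
Log2 difference of each Wnt ligand (horizontal axis, ± 1 limma SE) in the 3 comparisons, with filled red points for called genes and open grey points for the rest. In GFP+ against columnar 5 called ligands lie to the right and Wnt5a to the left, and Wnt10a is the 1 ligand called in all 3 panels.

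Wnt7b, Wnt7a and Wnt11 were not called in any comparison as reported. Wnt7b, which airway epithelium makes during lung development, had signals of 7.84, 7.75 and 6.96 on the GFP+ arrays, 7.49, 8.25 and 7.89 on the lectin-only arrays and 8.12, 7.39 and 7.88 on the columnar arrays. The gates overlapped. Its difference was -0.28 in GFP+ against columnar, with a 95% interval between -0.96 and 0.40, so a change of more than 1 log2 unit in that comparison lay outside the interval. Wnt11, known for its part in cell movement and in kidney branching, had signals of 4.62, 4.77 and 4.40 on the GFP+ arrays, 4.27, 5.45 and 5.98 on the lectin-only arrays and 5.67, 5.36 and 5.28 on the columnar arrays. The GFP+ and columnar arrays did not overlap, but the difference of -0.84 ± 0.37 was not called (adjusted p = 0.196). The lectin-only arrays ran from below the GFP+ to above the columnar arrays, and without lectin-only replicate 1 Wnt11 was called lower in GFP+ against lectin-only (-1.12, adjusted p = 0.0486). Wnt7a lay near background in each gate, with means of 3.74 on GFP+ arrays, 3.79 on lectin-only arrays and 3.77 on columnar arrays. Its other probe sets, 1447647_at and 1458334_at, were above background on 0 and 3 of 9 arrays.

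Across genes, some followed the same course over the 9 arrays as the ligands of widest range. Among 3484 genes whose gate means spanned at least 1 log2 unit, those with the highest Pearson correlation with Wnt10a were D16Ertd472e, Jag2, Slc12a4, Snai2 and Arhgap25, with r between 0.989 and 0.991. Jag2, a Notch ligand, averaged 11.84 on GFP+ arrays, 9.45 on lectin-only arrays and 6.34 on columnar arrays. Those nearest to Wnt4 were Vsnl1, Pde5a, Bmp7, Abi3bp and Egfl6, with r between 0.991 and 0.998. Those nearest to Wnt5a were Agr2, Lyz2, Cxcl17 and Dhrs11, then Atp2c2, with r between 0.976 and 0.981 for the first 4. Agr2 is in the secretory and Lyz2 in the leukocyte marker list. Lyz2 did not follow that list: it averaged 13.61 on lectin-only and 13.83 on columnar arrays, where 14 of the 16 leukocyte markers were called higher in lectin-only. Agr2, a protein of mucus-secreting cells, averaged 12.27 on GFP+ arrays, 13.39 on lectin-only arrays and 13.67 on columnar arrays. These correlations describe 9 arrays that share their gates and are not evidence of a shared control.

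The 9 other Wnt genes gave few signals. Wnt1, Wnt2, Wnt2b, Wnt3 and Wnt8a were under background in every gate, and 4 of the 9 were above it on at least 1 array. Wnt16, a ligand known from bone and from injury responses, was the only 1 called, lower in GFP+ against columnar. Wnt16 averaged 3.05 ± 0.23 (SD, n = 3) on GFP+ arrays, 3.36 on lectin-only arrays and 4.73 ± 0.36 on columnar arrays. Because each GFP+ array was under background, the difference is a bound, at least 2.26-fold lower in the GFP+ gate (adjusted p = 0.00646 by limma). In lectin-only against columnar it was called as deposited (adjusted p = 0.0235), but only 1 of 3 lectin-only arrays was above background, and with dim values set to background the difference was -0.996 and not called.

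Of 76 measured genes in 9 lists of other Wnt pathway genes, 12 rose and 2 fell in GFP+ against columnar, 4 were called higher and 1 lower in lectin-only against columnar, and 3 higher and 0 lower in GFP+ against lectin-only. These are 15.8% higher and 2.63% lower in the first comparison, against 5.88% and 5.33% of all genes, 5.26% and 1.32% in the second, against 6.47% and 2.38%, and 3.95% and 0% in the third, against 0.896% and 2.84%. The first count of 14 was 9 without GFP+ replicate 1, columnar replicate 2 or columnar replicate 3, and 9 with dim values set to background, where Fzd1, Fzd7, Fzd8, Ptk7 and Rspo3 lost their call. The third count of 3 was 1 without GFP+ replicate 1 or 3, and 2 with dim values set to background, where Sfrp1 lost its call. Fzd1, Fzd7, Fzd8, Ptk7 and Sfrp1 were themselves above background on every array. Setting dim values therefore left their differences unchanged and moved only their adjusted p. By limma, 11 of the 76 genes had an unadjusted p under 0.05 in the third comparison, as did 2781 of all 18193 genes. By that count the share in these lists was not above that of all genes in the third comparison, although their share of calls of higher was. In the first comparison, 21 of the 76 genes had an unadjusted p under 0.05 by limma, as did 4571 of all 18193 genes.

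Among proteins that handle the ligands themselves, 0 of 3 were called and 1 had an unadjusted p under 0.05 by limma in GFP+ against columnar. Over all genes, 4571 of 18193 had such a p in that comparison. Wls, which carries Wnt proteins to the cell surface, averaged 11.01 ± 0.35 (SD, n = 3) in the GFP+ gate and 10.07 ± 0.37 in the columnar gate, a difference of 0.94 ± 0.26 that missed the limit of 1. Porcn, which attaches the lipid, differed by -0.60 ± 0.35 in the same comparison.

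Of 10 Frizzled receptors, 4 rose and 1 fell in GFP+ against columnar. Fzd10 rose most, averaging 7.17 on GFP+ arrays, 5.73 on lectin-only arrays and 3.83 on columnar arrays, and like Wnt10a it was called in all 3 comparisons, at 3.34 ± 0.25, 1.90 ± 0.25 and 1.45 ± 0.25 for GFP+ minus columnar, lectin-only minus columnar and GFP+ minus lectin-only. Fzd1 and Fzd8 rose by 1.43 ± 0.33 and 1.40 ± 0.41, and Fzd4 fell, at -1.02 ± 0.24. Of 6 other receptors, Ptk7, which takes part in planar polarity, rose by 1.57 ± 0.44. Of 9 R-spondins, their receptors and receptor ligases, Rspo3, a secreted enhancer of Wnt signals, was called higher, but only 1 of 3 columnar arrays was above background, and with dim values set to background its difference was 1.15 and not called (adjusted p = 0.0917).

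Of 13 measured antagonists and their partners, 4 rose in GFP+ against columnar. Sfrp1, which binds Wnt proteins, averaged 10.53 on GFP+ arrays, 8.42 on lectin-only arrays and 5.44 on columnar arrays, with a difference of 5.10 ± 0.41 between the outer gates. Dkk3, a member of the Dickkopf family, averaged 10.26 in the GFP+ gate and 6.76 in the columnar gate, and Sostdc1 rose by 1.64 ± 0.39. In the list of beta-catenin destruction and transcription 0 of 13 were called. By limma, 1 of the 13 had an unadjusted p under 0.05 in GFP+ against columnar, against 4571 of all 18193 genes. In the list of 6 targets of Wnt signals, Myc alone was called, higher by 3.51 ± 0.27, and 5 were not called. The targets used most widely to read beta-catenin activity were not called: Axin2 differed by -0.36 ± 0.48 and Nkd1 by 0.00 ± 0.27. Their signals were low, with Axin2 at 4.78 on GFP+ and 5.14 on columnar arrays and Nkd1 at 4.49 on both. The 95% interval of Axin2, between -1.44 and 0.73, includes a fall of more than 1 log2 unit. Sp5 was under background in both gates. Of 7 planar polarity genes, Vangl2 rose by 1.22 ± 0.19.

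**Figure D4:**
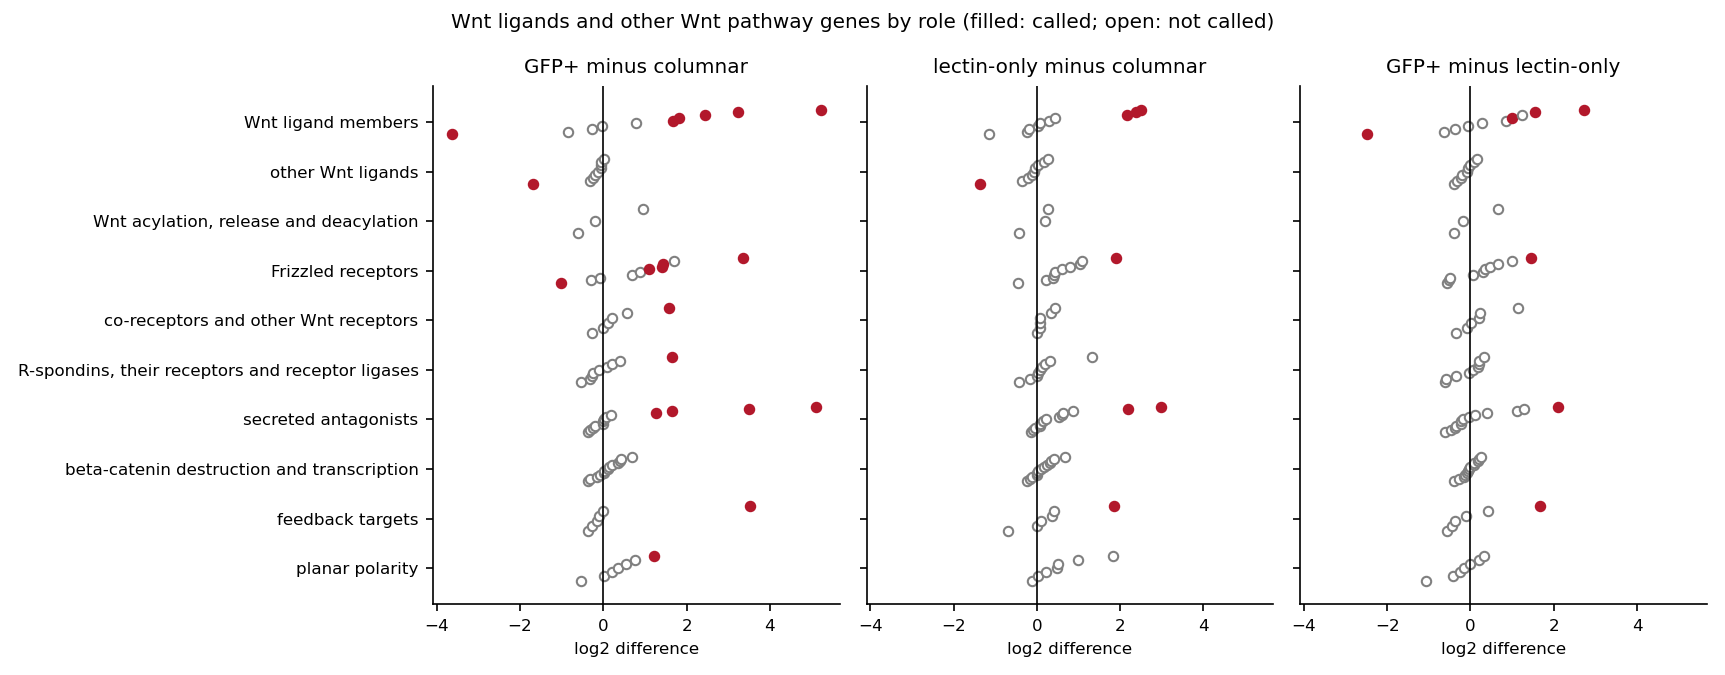
Log2 differences of the 10 Wnt ligands and of 76 other Wnt pathway genes, grouped by role down the page, in the 3 comparisons, with filled red points for called genes. In GFP+ against columnar, called genes lie in every row other than those for Wnt acylation, release and deacylation (0 of 3) and for beta-catenin destruction and transcription (0 of 13).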

How the data were processed

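The values used are log2 signals of probe sets on 9 arrays, deposited after RMA per the submitters' processing notes. Software, version and filters are not given in the sources used here. Values ran between 1.32 and 14.96, and 27.1% to 34.2% of those under background were repeated exactly on their array, as were 11.4% to 17.1% of those above it. The reported fits, differences and correlations used values under background as deposited. Where every array of a gate was under background, a fold was given as a bound. Of 45101 probe sets, 64 were controls, 34945 had 1 gene symbol, 932 several and 9160 none. Symbols of 34741 were updated through RefSeq. For each of 18193 genes, the probe set of highest mean over the arrays was kept.

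Gate means were fitted to all 9 arrays with limma 3.58.1 in R 4.3.3 (lmFit, eBayes), with 6 residual and 3.46 prior degrees of freedom. Probe sets were also tested singly, adjusted over 45037. The number of arrays limits the precision (median SE 0.24 on the log2 scale). The fit was tested on simulated data. The members and gene lists were chosen with earlier results of these data known. Named genes are the 10 members, Krt5 and Trp63, up to 3 called genes of largest difference per pathway list and comparison, and the 5 most correlated genes for the 3 members of widest range, and where other genes are given they were chosen after their values were seen. Alternatives covered scaling, low values, variance model, probe set choice, fold limit, arrays fitted, a replicate block and leaving out each array.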

Additional observations from a re-analysis of the deposited data

How the results depend on the processing

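Of the 10 ligands, Wnt10a, Wnt4 and Wnt9a kept their direction and their side of the threshold in all 3 comparisons under each of 19 alternatives, with Wnt10a in GFP+ against columnar between 4.91 and 5.43 and Wnt9a between 1.06 (mean of its probe sets) and 2.61. Wnt5a in GFP+ against columnar stayed called, between -4.25 and -2.47. The count of called ligands was 6 in GFP+ against columnar, and 5 to 6 with 1 array left out. It was 3 in lectin-only against columnar, and 3 to 4 with 1 array left out.

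It was 4 in GFP+ against lectin-only, and 1 to 3 with 1 array left out, 1 with dim values set to the background level at either the 95th or the 90th percentile, and 2 with only the gates compared. In that comparison the called genes over the whole table numbered 680, and 341 or 347 with dim values set to background, and 373 to 633 with 1 array left out. The other Wnt pathway genes called numbered 14 in GFP+ against columnar, 9 with dim values set to background (95th or 90th percentile) and 9 to 14 with 1 array left out. They numbered 5 in lectin-only against columnar, 8 with trended and robust eBayes and 5 to 7 with 1 array left out. With dim values set to background (95th percentile) they numbered 4, Wnt16 having lost its call. In GFP+ against lectin-only they numbered 3, and 1 to 4 with 1 array left out. The cause of these shifts was not tested. Centring arrays on their medians turned the split of called genes to 968 higher and 714 lower in lectin-only against columnar (1177 and 433 as deposited) and to 259 and 455 in GFP+ against lectin-only (163 and 517 as deposited), where Wnt5b was then called (1.39).

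With the replicate number as a block, the counts of called ligands were 6, 3 and 4, and the block changed no call of a ligand. The other Wnt pathway counts were 13, 6 and 3. Those of all genes were 2193, 1785 and 906, against 2038, 1610 and 680 without the block. Deviations of same-numbered arrays from their gate means correlated between -0.07 and 0.30 across probe sets, and not all were above 0.1. Those of arrays with other numbers in different gates correlated between -0.40 and 0.11. The labels do not say that a number marks a shared sort or animal, so the reported fits used no block. Whether the numbers pair the samples was not tested.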
